A study of Mus musculus with 8 samples.

Results

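The 10 genes described here carry the classical MHC class I antigen presentation pathway of the mouse: the heavy chains H2-K1 and H2-D1, their light chain B2m, the peptide transporter Tap1 and Tap2 with tapasin (Tapbp), the immunoproteasome subunits Psmb8, Psmb9 and Psmb10, and the transactivator Nlrc5. They were taken by gene symbol from a table of RNA-seq gene counts with 50600 rows, in which all 10 were found and all 10 passed the filter on low counts, as did 14497 rows in all. Reads were counted in 8 libraries of 4 groups, with 2 libraries in each group. The labels call the libraries of a group biological replicates, the wells were treated in duplicate, and nothing says that they came from separate cultures, so p-values measure the spread between these libraries, which may be technical.

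Class I molecules display short peptides from the cell's own proteins to CD8+ T cells. Proteasomes cut the peptides, TAP pumps them into the endoplasmic reticulum, tapasin holds the empty heavy chain and β2-microglobulin beside the pump until a peptide binds, and the loaded complex travels to the surface. Interferons raise the whole pathway in most cell types, through IRF1 and the class I transactivator NLRC5 among others, and they exchange 3 catalytic subunits of the standard proteasome for immunoproteasome subunits. Tumors of many kinds lower these genes, and low class I display is a known route of escape from T cells.

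NF1-MET is a cell line from a murine malignant peripheral nerve sheath tumor (MPNST), a sarcoma of the Schwann cell lineage that arises in neurofibromatosis type 1. The mouse carried a floxed and a null Nf1 allele, a MET transgene behind a lox-stop-lox cassette, and an inducible Cre transgene, and the line carries amplified Met and has lost Cdkn2a spontaneously. NF1-MET;sgP53 was made from it with a lentiviral CRISPR-Cas9 guide against Trp53 and puromycin selection, and is labelled Trp53 KO against WT for NF1-MET. Both lines therefore share the Nf1, MET and Cdkn2a background, and each genotype is represented by 1 line. The study also made an empty-vector control line from NF1-MET. The descriptions of the NF1-MET libraries begin with SEV, which the labels do not spell out, so whether they came from that control line is not stated. Each line received vehicle (DMSO) or 100 nM capmatinib, a small-molecule inhibitor of the MET receptor tyrosine kinase, for 24 h. The comparisons ask how MET inhibition changed these transcripts in each line, and how the p53-deficient line differed from its parent in vehicle, under the drug and in its response.

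Library totals ran from 30116810 to 42781371 counts. Values are CPM, counts scaled to a common library size with TMM factors, which ran from 0.898 to 1.10. A single row, Gm42418, took between 1.11% and 13.1% of the counts of a library and differed between replicates, most of all in NF1-MET;sgP53 under capmatinib (10.0% and 1.11%). Trp53, the guide's target, was at 182 and 193 CPM in NF1-MET in vehicle and 126 and 128 under capmatinib, against 97.5 and 100.0 in NF1-MET;sgP53 in vehicle and 68.0 and 68.8 under capmatinib. It was lower in the knockout line by a log2 difference of -0.94 ± 0.03 in vehicle and -0.89 ± 0.03 under capmatinib (SE), so the label and the RNA went the same way. Of the Schwann lineage markers, Sox10 had 0 to 7 counts and S100b 3 to 21 in a library, while Egr2 and Gap43 were well detected. Among markers of other cell types, Itgam, Adgre1, Cd3e and Cd8a had no count in any of the 8 libraries, and Ptprc, which marks leukocytes, had 0 to 7.

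The 2 heavy chains and B2m were the most abundant members in vehicle, and capmatinib raised them least. Per kilobase of exon, a scale that allows a rough comparison of genes, B2m stood at 296 CPM in NF1-MET in vehicle, H2-D1 at 40.8 and H2-K1 at 15.7, against 8.02 for Tapbp, 0.229 for Tap1, 0.202 for Psmb8 and 0.00929 for Nlrc5. Under capmatinib Tapbp, at 24.9 in NF1-MET cells and 27.04 in NF1-MET;sgP53 cells, stood above H2-K1, at 18.98 and 23.04. The lengths are unions of all annotated exons, 3628 bases for Tapbp and 2938 for H2-K1, and gaps of this size depend on that choice. H2-K1 and H2-D1 resemble each other and several other class I genes, mapping was by STAR at its defaults, and the H2 haplotype of the lines against the reference is not stated, so that their values are uncertain and the printed sequences are those of the reference. In bulk RNA, more expressing cells and more RNA per cell cannot be told apart.

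The promoters of H2-K1, H2-D1 and B2m share a short block of letters, shown here because it follows elements known from class I promoters. Windows of 250 bases before to 50 bases after the start site (RefSeq, GRCm38.p6) were on hand for 8 of the 10 members, Tap2 and Nlrc5 not among them. The pattern searched was TGACG, then 20 bases of any kind, then ATTGG, on both strands. It follows the textbook spacing of the X2 and Y boxes, the elements through which class I transactivation acts. It was written down after these promoters had been read, so that its share of all windows is a description and no test. It occurred in the windows of H2-K1, H2-D1 and B2m, in 1 of 12 nonclassical class I genes (H2-M3, which rose with capmatinib by 1.33 and 0.99 on the log2 scale), and in 0.0944% of 32851 windows of this length. The capitals mark TGACG and ATTGG.
H2-K1: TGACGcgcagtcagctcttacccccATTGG
H2-D1: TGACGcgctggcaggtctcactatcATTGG
B2m: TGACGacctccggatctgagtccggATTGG
H2-M3: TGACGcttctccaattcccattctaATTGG
The blocks lie at chr17:34000359-34000388 on the minus strand (H2-K1), chr17:35262993-35263022 on the plus strand (H2-D1), chr2:122147609-122147638 on the plus strand (B2m) and chr17:37270188-37270217 on the plus strand (H2-M3), all upstream of the RefSeq start site, and that of H2-D1 lies inside an annotated UTR of a longer transcript. The κB pattern (GGG, any 2 bases, TTCCC), present in 1.75% of windows, occurred in 2 members, H2-K1 and H2-D1, as the same 10 letters, GGGGATTCCC, further upstream, and in 3 of 12 nonclassical genes, with those letters in H2-Q6 and H2-Q7. An interferon response pattern (GAAA, any 2 bases, GAAA), present in 3.44% of windows, occurred in 1 member, B2m, as GAAACTGAAA, and in 16 of 24 interferon-stimulated genes with a window. The STAT pattern (TTC, any 3 bases, GAA), present in 8.3% of windows, occurred in 1 member, Psmb8, as TTCCCAGAA. These are matches of letters and not measured binding sites.

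In NF1-MET cells, capmatinib raised all 10 genes. The median of the fitted log2 changes was 1.52, where the median over all genes tested was 0.00. All 10 were called higher at an adjusted p under 0.05 by edgeR's quasi-likelihood test, and of all genes tested 35.5% were called higher and 34.7% lower, 5140 and 5029 genes. Psmb9 reached the filter of 10 counts in 2 libraries through capmatinib libraries alone, and without it 9 of 9 were called, with a median of 1.42. With library totals in place of TMM factors, the split was 3508 higher and 6381 lower, the median of all genes was -0.18, and 7 of the 10 were called higher. In NF1-MET;sgP53 cells, 9 of the 10 were called higher, with a median of 1.18 against 0.00 over all genes tested, beside 34.2% called higher and 33.4% called lower of all genes tested (4963 and 4841 genes, or 3260 and 4933 with library totals, under which 7 of the 10 were called and the median of all genes was -0.12). Nlrc5 was the member not called. Without Psmb9, 8 of 9 were called, with a median of 1.00. In all 10 genes both capmatinib libraries lay above both vehicle libraries of the same line, as they did for 43.2% of all genes past the filter in NF1-MET and for 41.9% in the other line. In 7 of the 10 every capmatinib library lay above every vehicle library of both lines, against 33.3% of all genes.

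**Figure D1:**
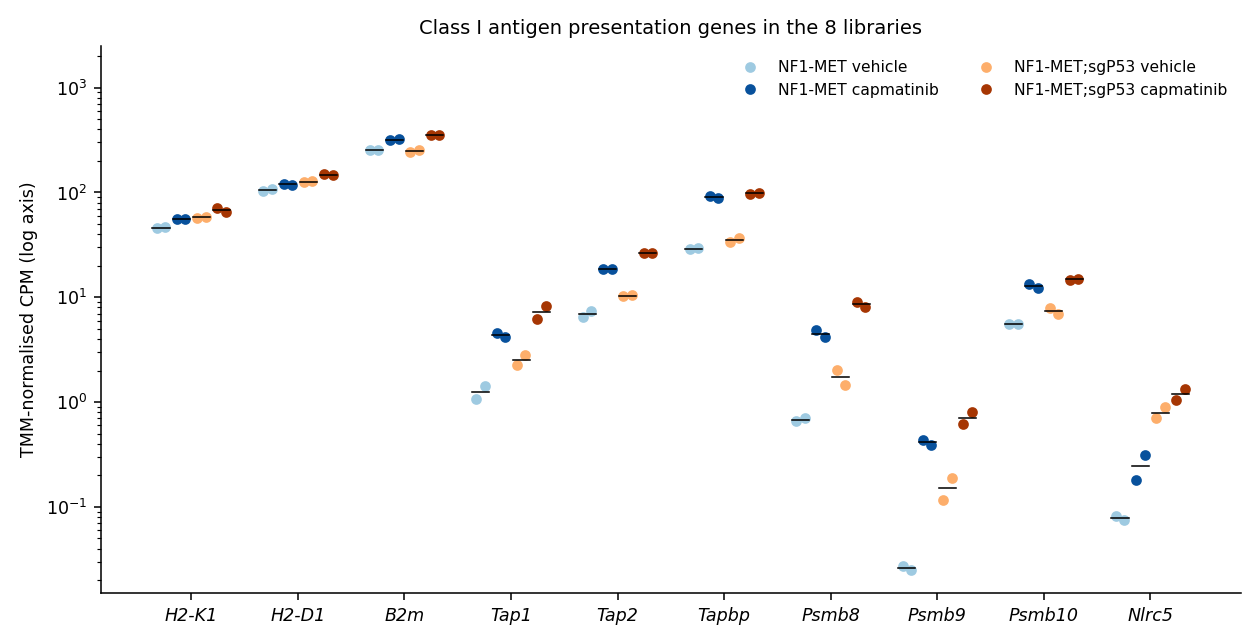
TMM-normalised CPM (log axis) of the 10 class I genes in each of the 8 libraries, with points for libraries, colours for the 4 groups and black bars for group means. For each gene the capmatinib libraries lie above the vehicle libraries of the same line (43.2% of all genes in NF1-MET, 41.9% in NF1-MET;sgP53). For 7 genes every capmatinib library lies above every vehicle library of both lines, against 33.3% of all genes. For H2-K1, H2-D1 and Nlrc5 the vehicle libraries of NF1-MET;sgP53 lie above the capmatinib libraries of NF1-MET. The share of all genes with that last order was not computed, and Nlrc5 passed the filter only through NF1-MET;sgP53 libraries.

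H2-K1, a classical heavy chain at chr17:33996017-34000347, measured 45.9 and 46.5 CPM in NF1-MET in vehicle and 55.8 and 55.7 under capmatinib, then 57.1 and 58.7 in NF1-MET;sgP53 in vehicle and 71.0 and 64.4 under capmatinib. The groups compared did not overlap, and the knockout line in vehicle lay just above NF1-MET under the drug. The fitted changes with capmatinib were 0.25 ± 0.04 and 0.22 ± 0.04 (log2 ± SE, adjusted p = 1.3e-06 and 5.1e-05). With library totals they were 0.07 and 0.10 and were not called (adjusted p = 0.352 and 0.430).

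H2-D1, the other classical heavy chain, at chr17:35262730-35267499, measured 103 and 108 CPM in NF1-MET in vehicle and 121 and 118 under capmatinib, then 126 and 128 in NF1-MET;sgP53 in vehicle and 150.3 and 145 under capmatinib. The order of groups was that of H2-K1. Its changes with capmatinib were 0.16 ± 0.03 and 0.22 ± 0.03 (adjusted p = 1.8e-05 and 4.7e-06), and with library totals they were -0.02 and 0.10, not called and in NF1-MET of the other sign (adjusted p = 0.769 and 0.454).

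B2m encodes the light chain shared by all class I molecules and lies at chr2:122147686-122153083, away from the MHC. It measured 254 and 256 CPM in NF1-MET in vehicle and 316 and 324 under capmatinib. In NF1-MET;sgP53 it measured 245 and 253 in vehicle and 352 and 351 under capmatinib. The vehicle libraries of the 2 lines lay close together and the capmatinib libraries did not. The changes were 0.31 ± 0.02 and 0.49 ± 0.03 (adjusted p = 2.5e-13 and 1.7e-12).

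The genes of the peptide transporter moved further. Tap1 and Tap2 encode the partner chains of the TAP pump, and Tapbp encodes tapasin, which ties the pump to the heavy chain. Tap1 (chr17:34187553-34197225) measured 1.07 and 1.43 CPM in NF1-MET in vehicle and 4.55 and 4.19 under capmatinib, and 2.27 and 2.83 rising to 6.24 and 8.21 in NF1-MET;sgP53. Tap2 (chr17:34203527-34216321) measured 6.47 and 7.37 against 18.7 and 18.8 in NF1-MET, and 10.2 and 10.5 against 26.5 and 26.3 in NF1-MET;sgP53. Tapbp (chr17:33915899-33929292) measured 28.9 and 29.3 against 91.6 and 89.2 in NF1-MET, and 33.5 and 36.8 against 96.9 and 99.2 in NF1-MET;sgP53. For all 3 genes every capmatinib library lay above every vehicle library, whichever the line. The changes of Tap1 were 1.77 ± 0.18 and 1.49 ± 0.15, those of Tap2 were 1.42 ± 0.08 and 1.35 ± 0.07, and those of Tapbp were 1.62 ± 0.04 and 1.48 ± 0.04 (adjusted p from 2.4e-26 to 8.4e-09). The changes of Tapbp, 3.07-fold and 2.78-fold, carry the smallest SEs of the 3. Tap1 shares 212 exonic bases with Psmb9, Tap2 shares 533 with Gm15821 and 165 with Gm20496, and Tapbp shares 904 with Gm19412, all on the other strand, and without a stated strand setting reads from those stretches cannot be told apart. Tapbp also shares 149 exonic bases with Zbtb22 on the same strand, which no strand setting separates.

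**Figure D2:**
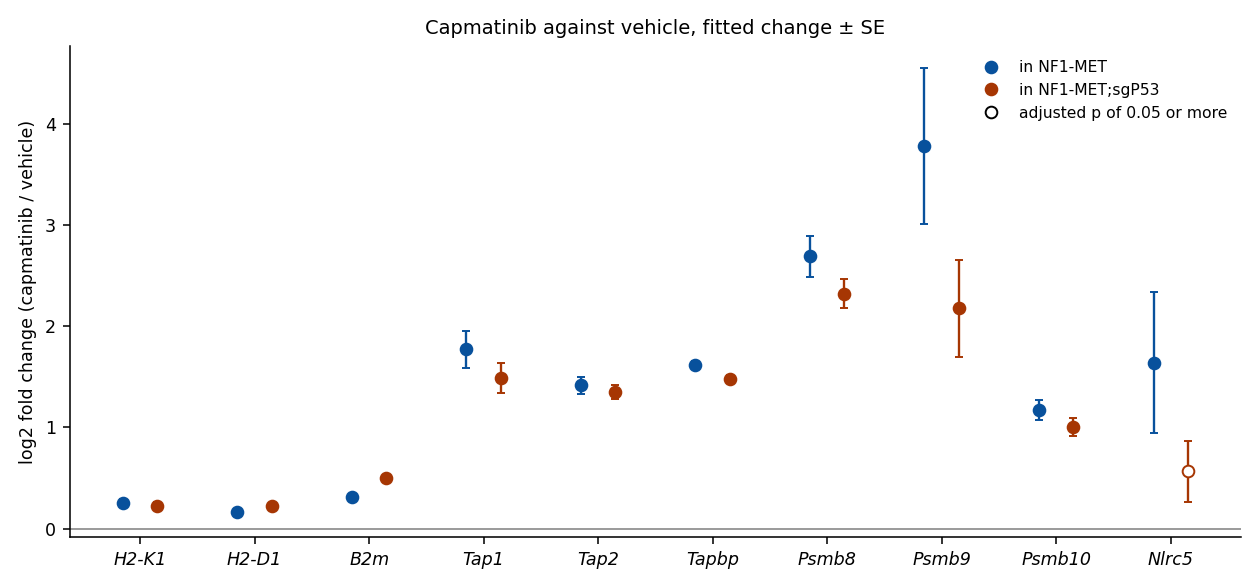
Fitted log2 fold change (capmatinib over vehicle) of each class I gene in NF1-MET (blue) and NF1-MET;sgP53 (brown), with bars of 1 SE over 2 libraries a group and open symbols where the adjusted p was 0.05 or more. H2-K1, H2-D1 and B2m lie below 0.5, the transporter genes between 1.35 and 1.77, and Psmb8 and Psmb9 above 2, with the long bars of Psmb9 and Nlrc5 resting on few counts.

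Of the immunoproteasome subunits, Psmb8 changed more than the heavy chains, B2m and the transporter genes in each line, and Psmb10 changed less than the transporter genes. Psmb8 (chr17:34197721-34201454), the inducible chymotrypsin-like subunit, measured 0.661 and 0.702 CPM in NF1-MET in vehicle and 4.88 and 4.14 under capmatinib, and 2.04 and 1.45 against 9.05 and 8.13 in NF1-MET;sgP53. Its changes were 2.69 ± 0.21 and 2.32 ± 0.14 (adjusted p = 3.3e-13 and 2.6e-12), or 6.44-fold and 4.995-fold. It shares 498 exonic bases with Gm20496 on the other strand, the same limit as for the transporter genes. Psmb10 (chr8:105935735-105938444), the inducible trypsin-like subunit, measured 5.54 and 5.61 CPM against 13.3 and 12.2 in NF1-MET, and 7.88 and 6.97 against 14.7 and 14.96 in NF1-MET;sgP53. Its changes were 1.17 ± 0.09 and 1.00 ± 0.09 (adjusted p = 1.2e-12 and 7.3e-10). For both genes the capmatinib libraries of each line stood clear of its vehicle libraries.

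Psmb9 (chr17:34181987-34187764), the third inducible subunit, was near the limit of detection. It had 1 and 1 counts in NF1-MET in vehicle and 12 and 15 under capmatinib, and 4 and 8 against 22 and 29 counts in NF1-MET;sgP53. Scaled to depth, the ratio of capmatinib to vehicle was 15.6 in NF1-MET (95% interval 3.91 to 135) and 4.58 in NF1-MET;sgP53 (2.41 to 9.44), with exact intervals that cover counting error only. Both changes were called (adjusted p = 6.1e-05 and 0.00035), but Psmb9 had to be high under capmatinib to pass the filter. With no filter the adjusted p was 2.5e-05 and 0.0019, and the fitted log2 values of 3.78 and 2.17 depend on the prior count at such depth. Psmb9 also shares 212 exonic bases with Tap1 on the other strand, the same limit as for the transporter genes. Tap1 had 39 to 298 counts in a library and itself rose with capmatinib. The part of this overlap in the values of Psmb9 was not tested.

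Each inducible subunit replaces a standard one in newly built proteasomes: Psmb8 replaces Psmb5, Psmb10 replaces Psmb7, and Psmb9 replaces Psmb6. Per kilobase, Psmb8 made up 0.643% ± 0.02 of the Psmb8 and Psmb5 sum in NF1-MET in vehicle (SD, n = 2) and 5.23% ± 0.10 under capmatinib, and 1.61% ± 0.26 against 9.32% ± 0.80 in NF1-MET;sgP53. Psmb10 made up 8.58% ± 0.19 of its pair with Psmb7 against 22.1% ± 1.2 in NF1-MET, and 10.8% ± 0.63 against 23.6% ± 0.43 in NF1-MET;sgP53. Psmb9 stayed at or under 0.501% of its pair with Psmb6 in every library. The inducible subunit was thus the minor partner of each pair in all 8 libraries, and both partners moved. Psmb5, Psmb6 and Psmb7 fell by 0.40, 0.41 and 0.42 on the log2 scale in NF1-MET and by 0.34, 0.32 and 0.35 in NF1-MET;sgP53 (adjusted p at most 3.6e-05). The lengths behind the shares are unions of all annotated exons, 3381 bases for Psmb8 against 899 for Psmb5. For Psmb10 and Psmb7 they are 1705 and 3421 bases. The size of each share depends on these lengths, and the pairs cannot be ranked against each other by them.

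**Figure D3:**
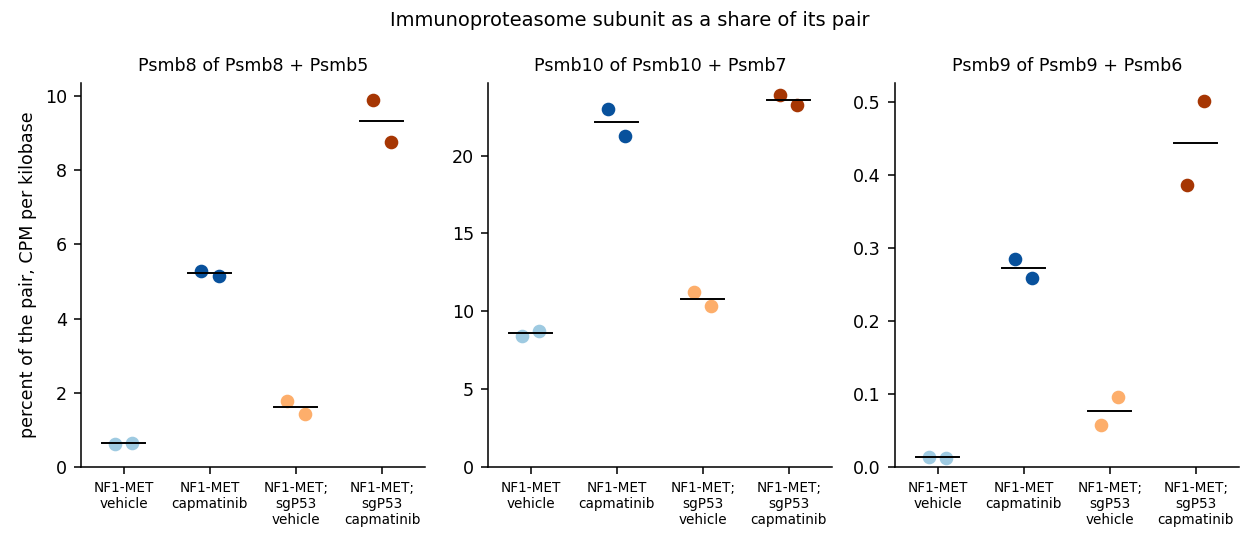
Share of each immunoproteasome subunit in the sum of itself and the standard subunit it replaces, in percent of CPM per kilobase, with points for libraries and bars for group means (linear axes from 0, a different range in each panel). Psmb8 rises from 0.643% to 5.23% in NF1-MET and from 1.61% to 9.32% in NF1-MET;sgP53, Psmb10 from 8.58% to 22.1% and from 10.8% to 23.6%, and Psmb9 stays under 1% throughout. The shares depend on the exon lengths used, so the panels cannot be ranked against each other.

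Nlrc5 (chr8:94434356-94527272), the NOD-like receptor that acts as transactivator of class I promoters, was the least expressed member per kilobase in NF1-MET under capmatinib. It had 3 and 3 counts in NF1-MET in vehicle, 5 and 12 under capmatinib, 24 and 38 in NF1-MET;sgP53 in vehicle and 37 and 48 under capmatinib. The knockout libraries were higher than all NF1-MET libraries under either treatment, but Nlrc5 had to be high in knockout libraries to pass the filter. That order is a description, and the share of all genes that have it was not computed. The ratio of capmatinib to vehicle was 3.27 in NF1-MET (95% exact interval 1.23 to 10.1, counting error only) and 1.48 in NF1-MET;sgP53 (1.05 to 2.08). The first was called with an adjusted p of 0.0356, which was lost with library totals (0.0698), with no filter (0.0654), with DESeq2 (0.209), and without either NF1-MET vehicle library (0.0932 and 0.126) or the second capmatinib library (0.304). The second was not called (adjusted p = 0.101).

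In vehicle, NF1-MET;sgP53 had more of most of these transcripts than NF1-MET. Of the 10, 8 were called higher and 0 lower, with a median log2 difference of 0.47 against 0.00 over all genes tested, and of all genes tested 10.9% were called higher and 12.3% lower (1580 and 1775 genes, or 1280 and 743 with library totals, under which 8 were again called). Nlrc5 had to be high in NF1-MET;sgP53 libraries to pass the filter of 10 counts in 2 libraries, and without it 7 of 9 were called, with a median of 0.39. Its counts gave a ratio of 10.2 (95% exact interval 4.43 to 28.9, adjusted p = 5.8e-05, or 4.9e-05 with no filter). Psmb8 was higher by 1.31 ± 0.27 (log2 ± SE, adjusted p = 0.0012), Tap1 by 1.01 ± 0.21 (0.0014) and Tap2 by 0.56 ± 0.09 (0.00011). Psmb10 was higher by 0.39 ± 0.10 (0.0099), H2-K1 by 0.31 ± 0.04 (4.1e-06), Tapbp by 0.26 ± 0.05 (0.0012) and H2-D1 by 0.25 ± 0.03 (6.3e-06). The call for Psmb10 was lost with DESeq2 (adjusted p = 0.109) and without the first NF1-MET or the first NF1-MET;sgP53 vehicle library (0.0543 and 0.0850).

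B2m and Psmb9 were the members not called in vehicle. B2m differed by -0.05 ± 0.03 (95% interval -0.11 to 0.00, adjusted p = 0.190), and with library totals by 0.0054. Psmb9, with 12 counts against 2, had a ratio of 5.93 (95% exact interval 1.32 to 54.5) and an adjusted p of 0.0641, which came to 0.0492 with edgeR's bias-adjusted test and 0.0475 with all 8 libraries in 1 model.

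Under capmatinib, 8 of the 10 were again called higher in NF1-MET;sgP53 than in NF1-MET and 0 lower, with a median of 0.40 against 0.00 over all genes tested, where 5.94% of all genes tested were called higher and 6.34% lower (860 and 918 genes, or 537 and 129 with library totals, under which 6 of the 10 were called and the median of all genes was 0.11). Without Nlrc5, to which the same limit applies, 7 of 9 were called, with a median of 0.31. Nlrc5 had a ratio of 4.62 (95% exact interval 2.72 to 8.30, adjusted p = 0.00073, or 0.0097 with no filter). Psmb8 was higher by 0.94 ± 0.12 (1.7e-05), Tap1 by 0.73 ± 0.14 (0.0012) and Tap2 by 0.50 ± 0.06 (7.7e-06). H2-D1 was higher by 0.31 ± 0.03 (3.6e-06), H2-K1 by 0.28 ± 0.04 (0.00018), B2m by 0.13 ± 0.03 (0.0023) and Tapbp by 0.12 ± 0.03 (0.011). Psmb10 and Psmb9 were not called, at 0.22 ± 0.07 (adjusted p = 0.0582) and a ratio of 1.74 (95% exact interval 1.07 to 2.89, adjusted p = 0.214). The call for Tapbp was lost with library totals (adjusted p = 0.151), with no filter (0.0654), with DESeq2 (0.168), and without the second NF1-MET or the second NF1-MET;sgP53 capmatinib library (0.164 and 0.0736). That for B2m was lost with library totals (0.143), and Psmb10 was called without the first NF1-MET capmatinib library (0.0265).

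**Figure D4:**
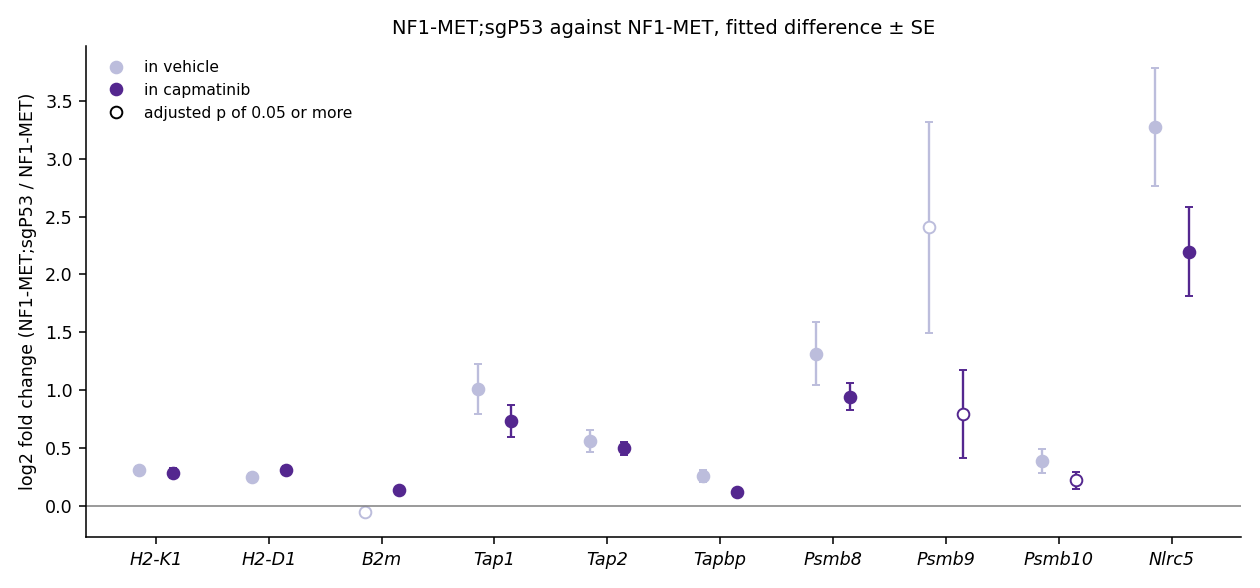
Fitted log2 fold change of each class I gene between the lines (NF1-MET;sgP53 over NF1-MET) in vehicle (light) and under capmatinib (dark), with bars of 1 SE over 2 libraries a group and open symbols where the adjusted p was 0.05 or more. B2m in vehicle lies at -0.05 and the other values lie above 0, with Psmb9 not called in either comparison and Psmb10 not called under capmatinib. Nlrc5 passed the filter only through NF1-MET;sgP53 libraries, and the long bars of Nlrc5 and Psmb9 rest on few counts.

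The difference between the lines in their response to capmatinib was fitted as the interaction of line and treatment. B2m was the one member called: its response was larger in NF1-MET;sgP53 by 0.17 ± 0.04 on the log2 scale (adjusted p = 0.0040). The median over the 10 was -0.17 and over all genes tested -0.03. Of all genes tested, 3.85% were called higher and 5.86% lower (558 and 849 genes, against 192 and 123 with library totals and 873 and 612 with Gm42418 left out). With library totals B2m's difference was 0.24 and was not called (adjusted p = 0.342). For Tapbp the difference was -0.16 (95% interval -0.28 to -0.04, adjusted p = 0.0834), and without the first NF1-MET;sgP53 vehicle library it was called at -0.22 (adjusted p = 0.014). The intervals of the remaining 8 members held 0 and were narrow for H2-K1 (-0.17 to 0.07) and H2-D1 (-0.06 to 0.13) and wide for Nlrc5 (-2.59 to 0.41) and Psmb9 (-3.66 to 0.41), so that for the low-count members differences of several fold could not be detected at this depth.

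The genes around the pathway were described by lists, of which the plot of list responses shows 6. Among the nonclassical class I genes, 7 of 16 passed the filter, and 5 rose in NF1-MET cells and 6 in NF1-MET;sgP53 with capmatinib, where 35.5% and 34.2% of all genes tested were called higher (medians 0.68 and 0.55, or 4 and 4 genes with library totals), and none fell. H2-M3, which presents formylated peptides, rose by 1.33 ± 0.13 and 0.99 ± 0.12 (adjusted p = 7.8e-11 and 2.1e-07), and Mr1, which presents vitamin B metabolites, by 1.24 ± 0.06 and 1.19 ± 0.06 (2.4e-18 and 9.4e-14). Between the lines, H2-Q4 was higher in NF1-MET;sgP53 by 0.72 ± 0.13 in vehicle and 0.85 ± 0.12 under capmatinib (0.0003 and 5.9e-05). In all, 2 of the 7 were called higher in vehicle, the other being H2-T22 at 0.36 ± 0.10, and 1 under capmatinib, with none lower, where 10.9% and 5.94% of all genes tested were called higher.

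The 14 partners in peptide loading and trimming went both ways, beside 35.5% higher and 34.7% lower of all genes tested in NF1-MET and 34.2% and 33.4% in the other line. With capmatinib 5 rose and 6 fell in NF1-MET, and 7 rose and 5 fell in NF1-MET;sgP53. With library totals these were 3 and 9, then 3 and 4. Tapbpl, a tapasin-related peptide editor, rose by 1.06 ± 0.12 and 1.06 ± 0.11, and Erap1, the aminopeptidase that trims peptides in the endoplasmic reticulum, by 0.87 ± 0.05 and 0.70 ± 0.04. Thop1, a cytosolic oligopeptidase that destroys peptides, fell by 0.69 and 0.86, and Lap3, a cytosolic aminopeptidase, by 0.31 and 0.36. Of the chaperones of the loading complex, Calr and Pdia3 rose in NF1-MET;sgP53, by 0.19 ± 0.02 and 0.18 ± 0.02 (adjusted p = 5.6e-08 and 2.6e-07), and were not called in NF1-MET (-0.03 ± 0.02 and 0.01 ± 0.02). Canx fell by 0.10 in NF1-MET and was not called in the other line (-0.04 ± 0.02). Calr and Pdia3 were also called in the interaction, at 0.21 ± 0.03 and 0.16 ± 0.03 (adjusted p = 3.8e-05 and 0.00064), calls that were lost with library totals. Erap1 was also higher in NF1-MET;sgP53 in vehicle, by 0.38 ± 0.05 (1.3e-05), and under capmatinib, by 0.22 ± 0.04 (0.0017). In vehicle 3 partners were called higher in that line and 2 lower (2 and 0 with library totals), and under capmatinib 3 and 0 (1 and 0), beside 10.9% higher and 12.3% lower of all genes tested in vehicle and 5.94% and 6.34% under capmatinib.

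The list of standard proteasome β subunits, activators and the assembly factor Pomp moved against the 10 members. Of its 12 genes, 10 fell and 2 rose with capmatinib in each line, where 34.7% and 33.4% of all genes tested were called lower, and these counts were the same with library totals (medians -0.39 and -0.33). The 2 that rose, Psme1 and Psme2, form the PA28 activator that interferon also raises: Psme2 by 0.87 ± 0.05 and 0.77 ± 0.05, and Psme1 by 0.42 ± 0.05 and 0.57 ± 0.05 (adjusted p at most 7.3e-09). The other activators, Psme3 and Psme4, fell by 0.57 and 0.59 in NF1-MET and by 0.58 and 0.47 in NF1-MET;sgP53, where Psmb3, a structural β subunit, fell by 0.51. Between the lines, 2 genes of the list were called higher in NF1-MET;sgP53 and 1 lower in vehicle (2 and 0 with library totals). Under the drug the counts were 3 and 0 (1 and 0). The vehicle counts are near the shares of all genes tested (10.9% and 12.3%), and those under the drug stand beside 5.94% and 6.34%. Psme2 was among those higher both times, at 0.23 ± 0.05 and 0.14 ± 0.04.

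**Figure D5:**
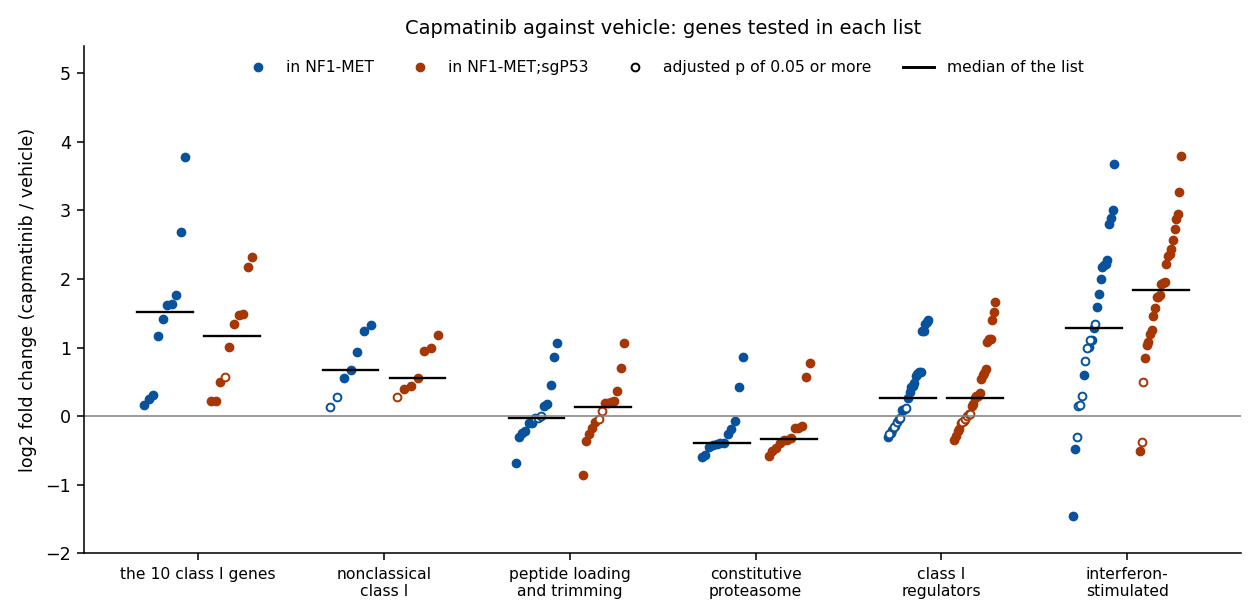
Fitted log2 fold change with capmatinib of every gene tested in 6 lists, in NF1-MET (blue) and NF1-MET;sgP53 (brown), with open symbols where the adjusted p was 0.05 or more and black bars for list medians. The medians are 1.52 and 1.18 for the 10 class I genes, 0.68 and 0.55 for the nonclassical class I genes, -0.39 and -0.33 for the standard proteasome list, and 1.28 and 1.85 for the interferon-stimulated genes.

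Among the regulators of class I genes, 27 of 28 were tested, and with capmatinib 17 rose and 4 fell in NF1-MET and 16 rose and 5 fell in NF1-MET;sgP53 (13 and 9, then 10 and 4, with library totals). Of all genes tested 35.5% rose and 34.7% fell in the first line and 34.2% and 33.4% in the second. Irf9, a subunit of the interferon-activated factor ISGF3, rose by 1.40 ± 0.12 and 1.66 ± 0.11, and Stat2, another subunit of it, by 1.24 ± 0.08 and 1.52 ± 0.09. Irf1, an inducer of the immunoproteasome and TAP genes, measured 16.7 and 15.04 CPM in NF1-MET in vehicle and 41.3 and 40.4 under capmatinib, and 18.6 and 18.0 against 39.2 and 41.0 in NF1-MET;sgP53, with changes of 1.35 ± 0.06 and 1.13 ± 0.05. Rfx5, which binds the X box of class I and class II promoters, rose by 0.59 ± 0.08 and 0.69 ± 0.09. Nfya and Nfyb, subunits of the factor that binds the Y box, fell by 0.31 and 0.25 in NF1-MET and by 0.29 and 0.22 in NF1-MET;sgP53. Rfxap, a partner of Rfx5, fell by 0.35 in the latter, and Irf2 was not called in either line (-0.08 ± 0.05 and 0.00 ± 0.05).

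In NF1-MET;sgP53, 4 regulators stood higher and 2 lower in vehicle (3 and 0 with library totals), and 5 higher and none lower under the drug, beside 10.9% and 12.3%, then 5.94% and 6.34%, of all genes tested. Irf9 differed by 0.56 ± 0.14 in vehicle and 0.83 ± 0.08 under capmatinib (adjusted p = 0.0067 and 1.6e-06). Irf1 was not called between the lines (0.19 ± 0.07 and -0.02 ± 0.04, adjusted p = 0.0584 and 0.803), nor was Rfx5 (-0.17 ± 0.09 and -0.07 ± 0.07). In the interaction Socs3, a feedback inhibitor of cytokine receptors, was called higher at 0.47 ± 0.07 (2.9e-05) and Stat3 lower at -0.18 ± 0.04 (0.0082), the latter not with library totals.

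Interferon-stimulated genes outside the class I pathway rose in both lines as well. With capmatinib 15 of 25 tested rose and 2 fell in NF1-MET, and 23 of 26 rose and 1 fell in NF1-MET;sgP53 (medians 1.28 and 1.85), with the same counts under library totals, beside 35.5% and 34.2% of all genes tested that rose. Of these genes 3 in NF1-MET and 4 in the other line reached the filter only through capmatinib libraries, and without them 15 of 22 and 19 of 22 rose (medians 1.44 and 1.76). Gbp2, a guanylate-binding protein, rose by 3.67 ± 0.09 and 3.26 ± 0.07, and Ifi44 by 3.01 ± 0.38 and 3.79 ± 0.23. Ifit2 fell by 0.47 and 0.50, and in NF1-MET the second gene that fell was Oasl1, at -1.46, named after its value was seen. Between the lines, 18 of 26 were higher in NF1-MET;sgP53 in vehicle (median 1.24) and 26 of 26 under capmatinib (median 1.76, or 24 of 26 called with library totals), and none was lower, beside 10.9% and 5.94% of all genes tested called higher. Of the 26, 5 reached the filter only through NF1-MET;sgP53 libraries, and without them 17 of 21 and 21 of 21 were higher (medians 1.19 and 1.08). Ifit1, an RNA-binding antiviral protein, was higher by 1.83 ± 0.19 in vehicle and 2.71 ± 0.22 under capmatinib (3.5e-07 and 9.1e-08), and Cxcl10, a chemokine, by 1.66 ± 0.29 in vehicle (0.00019). Usp18, a brake on interferon signaling, was higher by 2.89 ± 0.29 under capmatinib (1.8e-06). In the interaction 0 were called higher and 3 lower, beside 3.85% and 5.86% of all genes tested, among them Gbp2 at -0.43 ± 0.14 (0.0498) and the RNA sensor Ddx58 at -0.37 ± 0.09 (0.0070), and with library totals 1 higher and 0 lower.

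Class II genes were at or near 0. Ciita, the class II transactivator, had no count in any of the 8 libraries, which allows up to 0.0702 to 0.108 CPM (3 counts, counting error only), nor did H2-Aa, H2-Ab1, H2-Oa and H2-Ob, and the highest count of 3 further class II genes, Cd74, H2-Eb1 and H2-DMb1, was 8. H2-DMa, the 1 gene of 9 that was tested, had 25 to 40 counts and was called in none of the 5 comparisons.

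Markers of other cell types were low throughout. The summed level of the 13 genes lay between 2.06 and 2.48 CPM in NF1-MET in vehicle, 1.81 and 2.00 under capmatinib, and 2.12 and 2.41, then 2.04 and 2.24, in NF1-MET;sgP53. Of the 13 markers 2 were tested: Csf1r, a macrophage receptor, had 7 to 17 counts in vehicle and 26 to 30 under capmatinib and rose by 1.88 ± 0.44 and 1.14 ± 0.41 (adjusted p = 0.00031 and 0.017), and Cd68, another macrophage marker, fell by 0.90 and 0.64. The part of such transcripts in the results on class I genes was not tested. The summed Schwann lineage markers went from between 36.7 and 38.5 CPM to between 80.7 and 81.1 in NF1-MET and from between 41.9 and 43.4 to between 74.3 and 75.7 in NF1-MET;sgP53. Of the 10 markers 6 were tested, and 3 rose and 1 fell in NF1-MET while 3 rose and 2 fell in NF1-MET;sgP53, beside shares of all genes tested of 35.5% and 34.7%, then 34.2% and 33.4%. One of the risers, Mbp, reached the filter only through capmatinib libraries. Egr2, the myelination factor, made up most of the summed level under capmatinib, with group means of 16.1 CPM in vehicle and 73.9 under capmatinib in NF1-MET, and rose by 2.18 ± 0.05 and 1.83 ± 0.05 and Gap43 fell by 2.72 and 2.52. S100b, with 3 to 21 counts, was not called in NF1-MET (-0.38 ± 0.47) and fell by 1.95 in NF1-MET;sgP53 (adjusted p = 0.0185).

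The 10 members were standardised and averaged into 1 profile over the 8 libraries. Among 9774 genes outside the lists with a mean of at least 5 CPM, the most similar by Pearson correlation were Kif21b (r = 0.998), a kinesin, Samd9l (0.996), an interferon-inducible antiviral factor, Luzp2 (0.996), Sars (0.994), the seryl-tRNA synthetase, and Ext2 (0.993), a heparan sulfate polymerase. The 8 libraries fall into 4 groups, so the values describe the order of group means. Kif21b, the first of them, had group means of 5.71 CPM in NF1-MET in vehicle, 15.2 under capmatinib, 9.67 in NF1-MET;sgP53 in vehicle and 23.8 under capmatinib.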

How the data were processed

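RNA from MPNST cell lines was sequenced as poly(A)-selected libraries (paired-end). The authors deposited 1 table of raw gene counts for the 8 libraries. Per the labels and the study's methods, reads were demultiplexed with bcl2fastq 1.9.0, trimmed with Trim Galore 0.4.2, checked with FastQC 0.11.7 and mapped with STAR 2.5.2b to mm10, and STAR also counted reads per gene. The annotation release and strand setting are not given in the sources used here.

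Counts were tested with edgeR 4.0.16 in R 4.3.3 after the study's methods: a gene needed 10 or more counts in 2 or more of all libraries, and counts above 0 in 2 or more of those compared, with TMM factors, the quasi-likelihood F-test (legacy option) and Benjamini-Hochberg adjustment over all genes tested, with a threshold of 0.05. The rows removed by the first filter held 0.0396% of counts. Each comparison was fitted on its own 4 libraries and the interaction on all 8. Log2 changes carry SEs from the F statistic. Ratios of summed counts, scaled to depth, are given for Psmb9 and Nlrc5, with exact binomial 95% intervals that cover counting error only. Levels per kilobase use the union of GENCODE M21 exons, and coordinates are mm10 and 1-based. Scripts were tested on simulated counts.

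The members and lists were chosen with earlier results of these data known. Named genes were the 10 members, 14 pathway genes, up to 2 called rises and 2 falls of each list (higher group's mean 1 CPM or more), the 5 genes most like the members' profile, and Trp53, and some of these are not reported here. The gene-level alternatives were other scalings (DESeq2 1.42.0 size factors, library totals, Gm42418 left out), the Wald test of DESeq2, the bias-adjusted test of edgeR, other filters, a replicate block, all libraries in 1 model, and leaving out each library.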

Additional observations from a re-analysis of the deposited data

Results flagged for a closer look

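The response of B2m to capmatinib differed between the lines by the test of the interaction. NF1-MET cells gave 0.31 ± 0.02 and NF1-MET;sgP53 cells 0.49 ± 0.03 (log2 ± SE), a difference of 0.17 ± 0.04 with an adjusted p of 0.0040 by edgeR's quasi-likelihood test, and with library totals in place of TMM factors the difference was 0.24 with an adjusted p of 0.342. The capmatinib libraries measured 316 and 324 CPM in NF1-MET and 352 and 351 CPM in NF1-MET;sgP53, and the vehicle libraries measured 254 and 256 CPM, then 245 and 253 CPM.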

How the results depend on the processing

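Of 670 refitted log2 changes of the 10 members, 642 kept their direction and their side of the threshold, 19 kept the direction and lost the call, 4 gained it and 5 changed sign. With library totals H2-D1 with capmatinib in NF1-MET went from a called 0.16 to -0.020, not called. The other changes of sign were of values not called. With library totals they were B2m between the lines in vehicle (0.0054) and H2-K1 in the interaction (0.029). In the interaction H2-K1 ranged from -0.12 to 0.056 (above 0 without the second NF1-MET;sgP53 capmatinib library) and Tap2 from -0.18 to 0.0030 (above 0 without the first NF1-MET vehicle library) over the fits that each left out 1 library. The cause was not tested. Library totals left 0 members called higher in the interaction, against 1. Leaving out each library gave 9 to 10 members called higher with capmatinib in NF1-MET, 9 in NF1-MET;sgP53, 7 to 8 between the lines in vehicle, 7 to 9 under capmatinib and 1 in the interaction, with 0 to 1 lower there (Tapbp, without the first NF1-MET;sgP53 vehicle library) and 0 lower elsewhere. Deviations of same-numbered libraries correlated between -0.05 and 0.10 over genes, so the numbers were not taken to pair the libraries, and with the replicate number as a block 10, 9, 8, 8 and 1 members were called higher.

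Over all genes, calls between the lines in vehicle numbered 3355, against 2023 with library totals and 1933 with DESeq2. Under capmatinib they numbered 1778, against 666, 870 and, with no filter, 1070. In the interaction they numbered 1407, against 315 and 894. Depth limits Psmb9 and Nlrc5 most.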
